A study of Mus musculus with 2 samples.

Results

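The Siglec family was taken as 7 listed genes, Siglech, Siglecg, Siglec1, Siglece, Siglecf, Cd33 and Cd22, and all 7 were present among the 17751 genes of the raw transcript tables. They were read in each Seurat cluster of the deposited clustering and in each library. The cells were splenocytes of female C57BL/6 mice aged 8 weeks, either WT or Batf3-/-, which lack the transcription factor that cDC1 development depends on. T and B cells were depleted and live MHCII+ CD11c+ cells were sorted. There was 1 library per genotype, each made from pooled spleens in an experiment done once. The libraries held 12224 WT and 12119 Batf3-/- cells. No replicate exists, so no test between genotypes or clusters was possible. The 95% intervals given throughout, exact Poisson intervals for levels, exact Clopper-Pearson intervals for shares and exact binomial intervals for ratios, cover counting error only. Levels are UMIs (unique molecules) of a gene per 1000000 UMIs of the cluster, written CPM.

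Siglecs are cell surface lectins that bind sialic acid at the ends of sugar chains, and their V-set immunoglobulin domain holds the binding site. Most of them carry inhibitory tyrosine motifs in the cytoplasmic tail that recruit the phosphatases SHP-1, encoded by Ptpn6, and SHP-2, encoded by Ptpn11. Siglec-H has no such motif and signals through the adaptor DAP12, encoded by Tyrobp. In the spleen Siglec-H is used as a surface marker of plasmacytoid dendritic cells (pDCs), CD22 and Siglec-G are best known as brakes on B cell receptor signalling, and Siglec-1 marks macrophages of the marginal zone. Siglec-E is found on neutrophils and other myeloid cells, Siglec-F on eosinophils, and CD33 on myeloid cells.

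The libraries held a total of 122530055 UMIs in WT and 114517073 in Batf3-/- cells, with medians of 8374 and 8516 per cell, and 56 cell barcodes occurred in both. Batf3 was at 206 CPM in the WT library and 2.49 CPM in the Batf3-/- library. The clusters are called by their number with the name the study gave them. C0 was immature cDC2a, C8 its mature counterpart and C5, C7 and C10 its cycling counterparts. C1 was the Il4i1+ mature cDC2, C2 the immature and C11 the mature cDC2b, C3 the Sox4+ cDC, C4 the immature, C12 the mature and C6 the cycling cDC1. C13 held NK cells, ILCs and T cells, C14 pDCs, C15 monocytes and C16 a mixed population. C9 was a mixed Sirpa+ cDC2 cluster with high mitochondrial genes, with median depths of 1467 WT and 1487 Batf3-/- UMIs per cell and medians of 14.9% and 13.8% mitochondrial UMIs. C4 and C12 each held only 31 Batf3-/- cells. C17, C18 and C19, with 90, 76 and 29 WT and 1, 2 and 36 Batf3-/- cells, are left out of the orders of clusters below unless named. C14 met the fixed pDC markers, with the 7 of them summing to 11917 CPM in WT and 11896 CPM in Batf3-/- cells, against 1119 and 1195 CPM in C3.

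In GENCODE M21 on GRCm38, 6 of the 7 genes are on chromosome 7. Siglecf (chr7:43351341-43359531), Siglecg (chr7:43408204-43418358), Cd33 (chr7:43524216-43544428) and Siglece (chr7:43651070-43660161) lie within 308.8 kb of each other. Cd22 (chr7:30865402-30880342) and Siglech (chr7:55768178-55778925) are on either side of that cluster, and Siglec1 is at chr2:131069220-131086765. The antisense gene Gm29439 overlaps Cd22 on the opposite strand.

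Because Siglech and Cd33 were highest in the same pair of clusters while Siglecg was not, the sequences upstream of these 3 genes are shown side by side. They come from the RefSeq promoter table on GRCm38.p6, in which 6 of the 7 genes had an entry, and are printed in the direction of transcription as the longest stretch without an annotated exon. Capitals mark the E-box CANNTG, which reads the same on both strands and is the kind of motif bound by E proteins such as TCF4, and GAGGAA or its reverse TTCCTC, the core of PU.1 and SPIB sites. These motifs share no overlapping match here.
Siglech, chr7:55767934-55768177, + strand: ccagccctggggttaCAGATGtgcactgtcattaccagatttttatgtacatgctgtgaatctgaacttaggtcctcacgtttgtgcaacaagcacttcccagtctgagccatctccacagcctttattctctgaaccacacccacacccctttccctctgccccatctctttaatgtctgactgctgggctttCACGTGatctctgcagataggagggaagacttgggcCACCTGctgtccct
Cd33, chr7:43533172-43533364, − strand: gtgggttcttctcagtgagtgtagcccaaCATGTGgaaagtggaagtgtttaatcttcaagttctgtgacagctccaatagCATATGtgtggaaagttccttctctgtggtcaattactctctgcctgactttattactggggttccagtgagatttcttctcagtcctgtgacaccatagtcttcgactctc
Siglecg, chr7:43407989-43408203, + strand: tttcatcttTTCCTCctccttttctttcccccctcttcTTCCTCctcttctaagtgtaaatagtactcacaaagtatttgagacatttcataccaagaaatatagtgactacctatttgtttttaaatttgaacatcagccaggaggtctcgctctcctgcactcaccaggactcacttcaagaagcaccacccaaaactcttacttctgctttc
The Cd33 stretch lies inside the annotated gene, upstream of the RefSeq start of a shorter transcript, and Siglecg had a second RefSeq entry with a nearby start. Over the whole 250 bases upstream, Siglech had 3 E-boxes and 0 GAGGAA matches, Cd33 had 2 and 1, and Siglecg had 0 and 2, with 0 and 0 in its second entry. The counts were 6 and 1 for Siglecf, which was barely detected, 2 and 0 for Cd22, which was low in C14, and 0 and 3 for Siglece. Among 32536 such windows of 250 bases, 66.2% held at least 1 E-box and 23.4% held GAGGAA on either strand. The medians were 1 and 0 matches. The genes printed were chosen by their levels, so their motif counts are a description. Whether these sites, or the start of the shorter Cd33 transcript, are used in these cells was not tested.

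Siglech marked pDCs and, at a much lower level, Sox4+ cDCs. In C14 it was at 1927 CPM in WT cells (95% interval 1859 to 1997, 3007 UMIs) and 2148 CPM in Batf3-/- cells (2060 to 2239, 2239 UMIs). In C3 it was at 131 CPM in WT (806 UMIs) and 102.0 CPM in Batf3-/- cells (1547 UMIs). These clusters held most of the gene's transcripts, since 71.5% of the WT and 53.5% of the Batf3-/- Siglech UMIs fell in C14 and a further 19.2% and 36.9% in C3.

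The level in C3 was 14.8-fold lower than in C14 in WT cells and 21.1-fold lower in Batf3-/- cells. With both libraries summed, C14 (2015 CPM) and C3 (110.3 CPM) each stood apart from the next cluster in the order. The 3 that followed, C16 at 19.7, C11 at 12.4 and C7 at 10.8 CPM, had intervals that overlapped from each to the next. C0, the most numerous cells, had 2.15 CPM in WT and 1.65 CPM in Batf3-/- cells, and Siglech was at 1.32 CPM in immature WT cDC1 of C4.

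**Figure D1:**
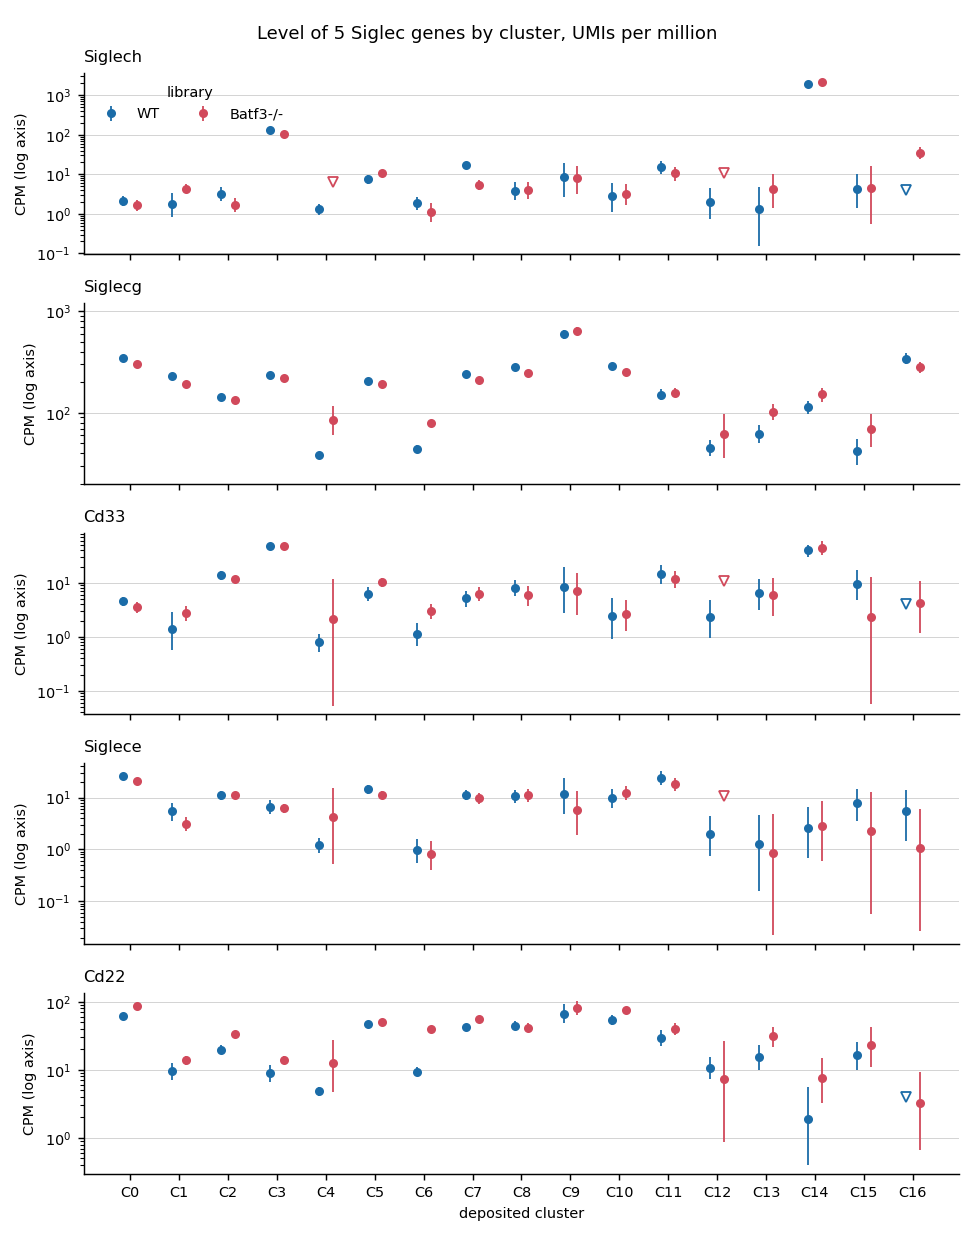
Level of Siglech, Siglecg, Cd33, Siglece and Cd22 in clusters C0 to C16 in UMIs per 1000000, on log axes, for the WT and Batf3-/- libraries; bars are exact Poisson 95% intervals and open triangles mark 0 UMIs, drawn at the level of 3 UMIs. Siglech peaks in C14 and C3, Cd33 in C3 and C14, and Siglecg, Cd22 and Siglece are high in C0.

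Counted per cell, nearly every pDC carried many Siglech molecules. The median in C14 was 19 UMIs in WT cells (range 0 to 44) and 22 in Batf3-/- cells (range 6 to 47). In C3 the most in a cell were 14 and 19 UMIs, and 400 of 704 WT and 923 of 1541 Batf3-/- cells had 0. After each cell was thinned to 1000 UMIs, 85.1% of WT and 83.2% of Batf3-/- C14 cells kept a Siglech UMI. In C3 the thinned shares were 10.8% (8.60 to 13.3) and 9.604% (8.18 to 11.2), and in C0 they were 0.346% and 0.203%. Unthinned, the C3 shares were 43.2% and 40.1% and the C0 shares 1.26% and 0.979%, with median depths of 8590 and 9444 UMIs in C3 and 6648 and 7187 in C0. The shares in C3 lay far above those in C0, the cDC2a that should lack the gene.

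**Figure D2:**
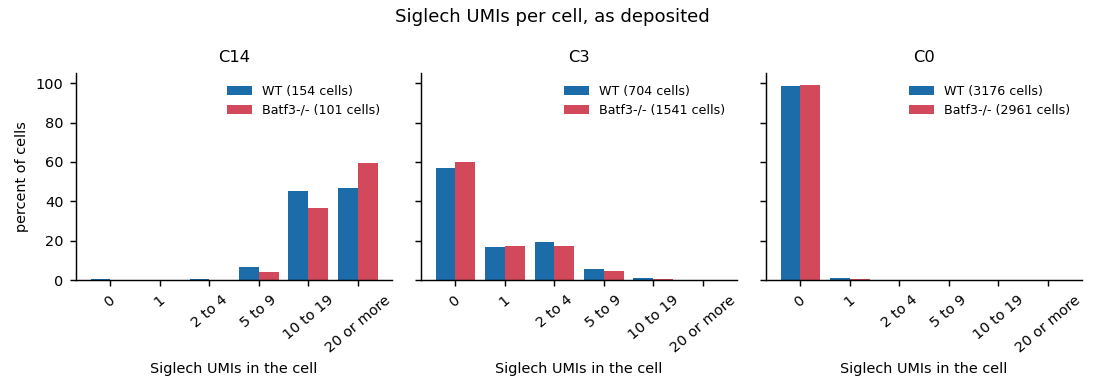
Share of cells, in percent, by the number of Siglech UMIs in the cell in C14, C3 and C0, with all UMIs as deposited and bars for WT and Batf3-/- cells. In C14 most cells had 10 or more, in C3 the cells with a UMI mostly had 1 to 4, and in C0 98.7% of WT and 99.0% of Batf3-/- cells had 0.

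The pDC markers differed between C14 and C3 by unequal amounts. Klk1, a kallikrein gene that was at 1100 CPM in WT and 1020 CPM in Batf3-/- C14 cells, gave only 2 and 4 UMIs in C3. At the 1.75 and 2.11 Siglech UMIs per Klk1 UMI of C14, these Klk1 counts correspond to 3.50 and 8.43 Siglech UMIs, where 806 and 1547 were counted. That figure holds for Klk1 alone, since other markers fell less. Cox6a2, a muscle-type cytochrome c oxidase subunit of pDCs, fell from 806 and 660 CPM in C14 to 2.75 and 5.61 CPM in C3. Tcf4, the E protein gene that specifies pDCs, was at 478 and 546 CPM in C3. It was higher in C14, with 2195 of 1560417 UMIs in WT and 1501 of 1042481 UMIs in Batf3-/- cells. Ly6d was at 3946 and 4004 CPM in C14 and 11.3 and 9.96 CPM in C3. Ccr9, a chemokine receptor gene of pDCs, was at 631 and 640 CPM in C14 and 38.9 and 45.3 CPM in C3, and Bst2 at 3837 and 3928 CPM in C14 and 582 and 583 CPM in C3. The part of pDC RNA in the Siglech level of C3 was not tested. Called doublets made up 5 of 704 WT and 20 of 1541 Batf3-/- C3 cells.

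Several low values of Siglech rested on a handful of cells. In C7 the 115 WT UMIs came from 23 cells, and 75.7% of them from 5 cells. The same C7 cells' library also had 21 Klk1 and 395 Ly6d UMIs in C7, against 1 and 45 in the Batf3-/- library. In C16 the gene had 0 UMIs in 58 WT cells, which allows up to 4.06 CPM, and 33 in Batf3-/- cells, of which 27 were in 1 cell.

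Cd33, a Siglec gene of myeloid cells, followed Siglech in where it was found but not in its proportions. It was at 48.8 CPM in WT (301 UMIs) and 47.4 CPM in Batf3-/- C3 cells (719 UMIs), and at 39.7 CPM (62 UMIs) and 44.1 CPM (46 UMIs) in C14. The log2 ratio of C3 over C14 was 0.30 (−0.10 to 0.71) in WT and 0.10 (−0.33 to 0.57) in Batf3-/- cells, so these clusters were not distinguished. C11 and C2, the cDC2b clusters, came next with 12.9 and 12.4 CPM over both libraries, also with overlapping intervals. Cd33 was at 4.54 CPM in WT and 3.57 CPM in Batf3-/- C0 cells, at 0.79 CPM in WT C4 cells and at 1.41 and 2.77 CPM in C1. C3 alone held 37.2% of the WT and 53.4% of the Batf3-/- Cd33 UMIs. After thinning to 1000 UMIs, 3.98% of WT and 4.67% of Batf3-/- C3 cells had a Cd33 UMI, against 0.378% and 0.372% of C0 cells.

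Siglecg was the member detected in most cells, with at least 1 UMI in 7749 WT and 8998 Batf3-/- cells. Its highest level was in C9, the cluster of low depth, at 595 CPM in WT and 638 CPM in Batf3-/- cells. Among the other clusters C0 led with 347 CPM (7578 UMIs) in WT and 305 CPM (6675 UMIs) in Batf3-/- cells. C16, at 341 and 282 CPM, had an interval that overlapped that of C0 over both libraries, and C10 and C8 followed at 267 and 264 CPM.

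Sox4+ cDCs carried more Siglecg than pDCs did. C3 was at 237 CPM in WT and 218 CPM in Batf3-/- cells, and C14 at 113 and 152 CPM, a log2 ratio of C3 over C14 of 1.07 (0.84 to 1.30) and 0.53 (0.29 to 0.76). The lowest WT levels from C0 to C16 were 38.5 CPM in C4, 41.9 in C15 monocytes, 44.4 in C6 and 45.2 in C12. The small cDC1 cluster C18 had only 2 Siglecg UMIs in WT, at 4.03 CPM (0.488 to 14.5). Within C2, cells that the deposited SingleR label called DC had 174 CPM in WT and 163 CPM in Batf3-/- cells, whereas those labelled monocytes had 92.96 and 68.8 CPM. Cd33 ran the other way by less, at 12.6 and 10.1 CPM in the cells labelled DC and 15.3 and 15.1 CPM in those labelled monocytes. These labels were made from the same transcripts.

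Cd22 was highest in cDC2a clusters and C9. It was at 61.9 CPM (1351 UMIs) in WT and 86.5 CPM (1893 UMIs) in Batf3-/- C0 cells, at 67.2 and 81.1 CPM in C9, and at 54.1 and 74.5 CPM in C10. Over both libraries the intervals of C9, C0 and C10 overlapped from each to the next, at 75.4, 74.3 and 66.4 CPM. C7 and C5 followed at 49.5 and 48.8 CPM, then C8 at 43.2 and the cDC2b clusters C11 at 35.4, with an interval that overlapped that of C8, and C2 at 28.8 CPM. In Batf3-/- C6 cells, the cycling cDC1, it was at 39.7 CPM, and 49.1% of those cells held a Cd22 UMI against 42.5% in C0, with median depths of 18019 and 7187 UMIs. Cd22 was low in Il4i1+ C1 (9.65 and 13.9 CPM), in C3 (8.91 and 13.98 CPM) and in C14 (1.92 and 7.67 CPM). After thinning to 1000 UMIs the order turned, with 8.63% of Batf3-/- C0 cells against 4.13% of Batf3-/- C6 cells. The thinned share was 5.73% in WT C0 cells. A Cd22 UMI was found in 0 of 154 WT C14 cells, which allows a share of up to 1.95% (3 cells) with a UMI at that depth, and in 1 of 101 Batf3-/- C14 cells. Unthinned, 3 WT and 5 Batf3-/- C14 cells held one.

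Of the B cell markers, some were near 0 in C0 and others were not. Cd79a, part of the B cell receptor, had 2 UMIs in WT and 0 in Batf3-/- C0 cells, and Pax5, the B cell identity factor, had 4 and 1. Cd79b (636 and 765 UMIs) and Ms4a1, which encodes CD20 (440 and 716 UMIs), were detected in C0. The 6 B cell markers used summed to 50.01 CPM in WT and 68.0 CPM in Batf3-/- C0 cells. The cells that SingleR labelled B cells, 21 in WT and 13 in Batf3-/-, were no clean reference, since Siglech was at 1427 and 1028 CPM in them and Cd22 at 6.29 and 126 CPM.

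Siglece was most frequent in immature cDC2a and mature cDC2b. C0 was at 25.9 CPM (564 UMIs) in WT and 20.5 CPM (449 UMIs) in Batf3-/- cells, and C11 at 24.0 (43 UMIs) and 18.0 CPM (46 UMIs), with overlapping intervals over both libraries. C5 came next over both libraries at 12.5 CPM, with an interval that overlapped that of C10 at 11.4 CPM. Siglece was low in cDC1, at 1.20 CPM in WT C4 cells and 0.959 and 0.817 CPM in C6, and in C14 it had 4 and 3 UMIs.

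Siglec1 and Siglecf were barely detected. Siglec1 had 15 UMIs in all WT cells and 6 in all Batf3-/- cells, at most 5 in any cluster, and those 5 were in WT C11 (2.79 CPM). The fixed macrophage markers summed to 2857 CPM in WT and 2264 CPM in Batf3-/- C11 cells. Their single values and their sums in other clusters are not given here, so no macrophage signal is read from this sum. Siglecf had 40 WT and 51 Batf3-/- UMIs and at most 17 in a cluster. Ear2, a gene of the fixed eosinophil marker list, had 1686 WT UMIs in C0, where Siglecf had 9. The other genes of that list, Epx, Prg2, Ear1, Ccr3 and Il5ra, are not given here, so no eosinophil signal is read from Ear2. Siglec1 had 0 UMIs in the C0 cells of both libraries together, which allows up to 0.0687 CPM (3 UMIs). Neither gene had enough UMIs for a comparison between clusters or genotypes.

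The 704 WT and 1541 Batf3-/- cells of C3 were next divided by whether they held a UMI of Siglech, Cd33 or Siglecg after thinning to 2000 UMIs, and 15 fixed genes were compared. All of these genes but Ccr2 are ones by which the paper, from these same cells, described lineage-mixed states, one of them with Siglech. The counts of the 15 genes below are therefore a description and no test against other genes. Siglech was found in 18.2% of WT and 16.3% of Batf3-/- cells, Cd33 in 6.96% and 6.62%, and Siglecg in 41.3% and 36.5%. With Siglech, 5 of the 15 genes (Tcf4, Cd8a, Bcl11a, Runx2 and Sox4) were higher and 1 (Sirpa) lower in both libraries with intervals that left out 0. With Cd33, 5 (Tcf4, Cd8a, Runx2, Ccr2 and Cx3cr1) were higher and 1 (Sox4) lower. With Siglecg, 0 were higher and 4 (Tcf4, Cd8a, Bcl11a and Ccr2) were lower. Among the 7021 genes with at least 50 UMIs in these cells, which included 13 of the 15, the same rule found 0.997% higher and 1.07% lower with Siglech, 1.17% and 0.897% with Cd33, and 0.869% and 1.24% with Siglecg. Bcl11a in WT was no longer lower with Siglecg when cells were thinned to 5000 UMIs, at a log2 ratio of 0.020.

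Tcf4 was at 715 CPM in WT C3 cells with Siglech and 415 CPM in those without. In Batf3-/- cells it was at 821 and 453 CPM. Cd8a, which encodes the CD8 alpha chain, was at 618 and 225 CPM in WT and 560 and 237 CPM in Batf3-/- cells. Sirpa, the surface receptor used to define cDC2, was at 113 CPM with and 174 CPM without Siglech in WT, and at 112 and 168 CPM in Batf3-/- cells. Cells that held a Siglech molecule therefore had more Tcf4 and Cd8a and less Sirpa than the others in each library.

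Sox4 and Ccr2, a monocyte chemokine receptor, were next set side by side for these splits. Sox4, the transcription factor gene that names the cluster, was at 245 CPM with and 592 CPM without Cd33 in WT, and at 250.1 and 632 CPM in Batf3-/- cells. For Siglech the same values were 704 with and 538 CPM without in WT, and 730 and 583 CPM in Batf3-/- cells. Ccr2 was at 306 and 131 CPM with and without Cd33 in WT, and at 368 and 121 CPM in Batf3-/- cells. With and without Siglech it was at 184 and 134 CPM in WT, where the interval of the log2 ratio held 0 (−0.04 to 0.94), and at 169 and 131 CPM in Batf3-/- cells (0.01 to 0.72). So Sox4 was lower with Cd33 and higher with Siglech in both libraries, while Tcf4 was higher with either. The paper, from subclusters and not from a split by a UMI, placed Sox4 in the state other than that of Siglech. The higher Sox4 with Siglech here differs from that placement, and the reason was not tested. Ccr2 was lowest among the cells with Siglecg, at 70.5 and 89.8 CPM against 194 and 164 CPM without.

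**Figure D3:**
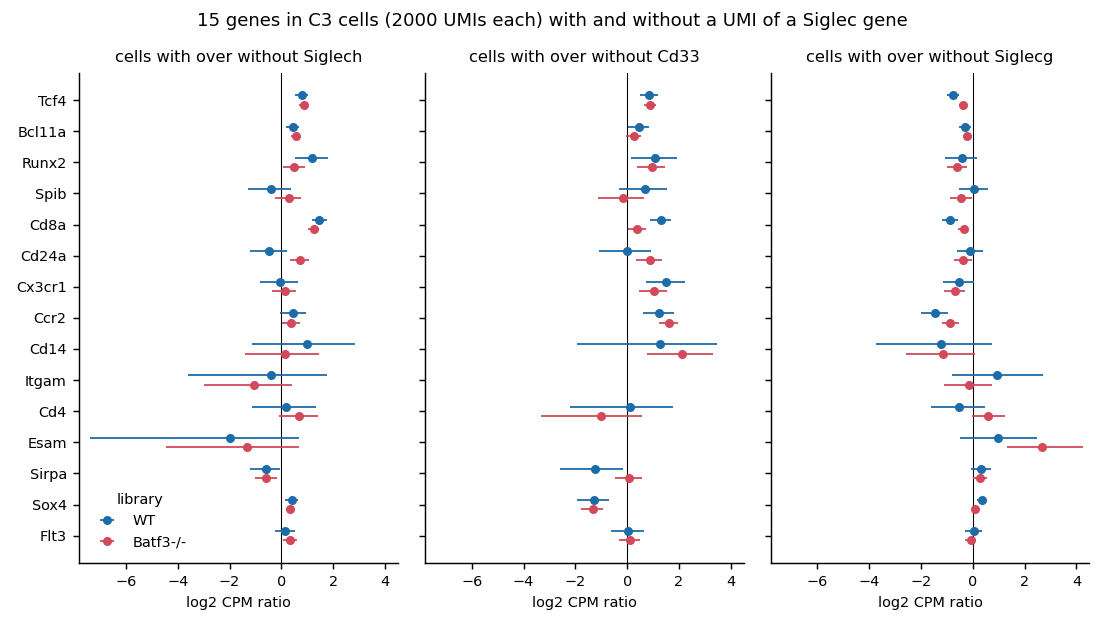
Log2 CPM ratio of 15 fixed genes in C3 cells with a UMI of Siglech, Cd33 or Siglecg over those without, each cell thinned to 2000 UMIs, for WT and Batf3-/- cells; bars are exact 95% counting intervals. Tcf4 and Cd8a are right of 0 for Siglech and Cd33 and left of 0 for Siglecg, and Sox4 is left of 0 for Cd33.

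The pDC markers Ccr9, Pacsin1, Cox6a2, Klk1 and Ly6d were not among the 15 genes, and their ratios in these splits are not given here. Bst2, a pDC marker also outside the 15 genes, moved the same way as Tcf4 and Cd8a. It was higher in the cells with Siglech (log2 ratio 0.82 in WT and 0.77 in Batf3-/- cells) and with Cd33 (1.06 and 1.11), and lower in those with Siglecg (−0.93 and −0.62). Called doublets were 0% of the WT cells with Siglech and 0.868% of those without, and 1.20% and 1.32% in Batf3-/- cells. Median depths before thinning were 9189 UMIs with and 8441 without Siglech in WT, and 9530 and 9383 in Batf3-/- cells.

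Pairs of members in 1 cell were counted in the same thinned C3 cells. Siglech and Cd33 were found together in 16 WT cells where the product of their shares gave 8.91, and in 23 Batf3-/- cells against 16.6. Siglecg and Cd33 were found together in 12 WT cells against 20.3, and in 26 Batf3-/- cells against 37.3. Siglech and Siglecg were found together in 45 cells against 52.9 in WT and 92 against 91.7 in Batf3-/- cells. At 1000 UMIs the pairs were fewer: Siglech with Cd33 in 5 WT cells against 3.02 and 7 Batf3-/- cells against 6.91, and Siglecg with Cd33 in 6 against 6.64 and 9 against 14.95. The differences from the product at 2000 UMIs were therefore not seen in each library at the lower depth. In C0, at 2000 UMIs, Siglecg and Cd22 were found together in 188 WT and 201 Batf3-/- cells, where their shares gave 177 and 198. These counts are descriptions, since cells of a library share their source.

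To ask how the genes varied with maturation and division, each mature or cycling cluster was set against a cluster of immature cells within each library. For C1 this was C0, and whether its cells come from those of C0 was not tested. A difference was counted when it was at least 1.5-fold and the gene had at least 50 UMIs in the clusters compared. The clusters had been made from the same transcripts, so these ratios are a description, and they were read against the share of all genes that passed the same rule.

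Il4i1+ mature cDC2 had less Cd22 and Siglece than C0. Cd22 was 6.41-fold lower in C1 in WT (9.65 against 61.9 CPM) and 6.24-fold lower in Batf3-/- cells (13.9 against 86.5 CPM). Siglece was 4.76-fold lower in WT and 6.54-fold lower in Batf3-/- cells. Siglecg was 1.498-fold lower, just short of the rule, in WT and 1.58-fold lower in Batf3-/- cells. Cd33 was 3.22-fold lower in WT (7 UMIs in C1) and 1.29-fold lower, short of the rule, in Batf3-/- cells. Siglech went the other way in Batf3-/- cells, 2.61-fold higher with a log2 ratio of 1.39 (0.76 to 2.03), and was at −0.25 (−1.47 to 0.79) in WT. In all, 3 of the 5 members with enough UMIs passed in WT and 4 of 5 in Batf3-/- cells, where 35.9% and 38.2% of all genes did.

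Mature cDC2a of C8 also had less Siglece than C0, at 10.6 against 25.9 CPM in WT and 11.3 against 20.5 CPM in Batf3-/- cells. Cd33 was higher in C8, with log2 ratios of 0.85 (0.25 to 1.43) and 0.72 (0.01 to 1.38). For C8 over C0, 3 of 5 members passed in WT and 4 of 5 in Batf3-/- cells, against 24.7% and 26.3% of all genes. Siglech was among those that passed in WT, and without the 5 cells with most of its UMIs its log2 ratio was −0.18. In Batf3-/- cells Siglech passed at a log2 ratio of 1.28 (0.35 to 2.15), from 17 UMIs in C8, 70.6% of them in 5 cells. Cd22 was 2.07-fold lower in Batf3-/- cells and 1.39-fold lower, short of the rule, in WT. In mature cDC2b the direction of Siglece was the opposite, with C11 over C2 at 1.11 (0.56 to 1.65) in WT and 0.70 (0.19 to 1.17) in Batf3-/- cells on the log2 scale. Siglech was also higher in C11 than in C2, at 15.1 against 3.26 CPM in WT and 10.6 against 1.70 CPM in Batf3-/- cells. These were the 2 of 5 members that passed for C11 over C2 in each library, where 16.1% and 14.6% of all genes did. The difference between the C8 and C11 ratios of Siglece was not tested.

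In mature cDC1 of C12, 2 of the 3 members with enough UMIs were higher than in C4 in WT, Cd22 at 10.8 against 4.89 CPM and Siglech with only 6 UMIs in C12 and a log2 ratio whose interval ran from −0.90 to 1.85, where 60.8% of all genes passed. With a mean of per-cell CPM that ratio of Siglech was −0.29. In Batf3-/- cells Siglecg alone had enough UMIs and did not pass (0 of 1), where 64.9% of genes did.

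In dividing cDC2a the CPM of Siglece was lower than in C0, and that of Siglecg passed the rule in C5 alone. Median depths in WT and Batf3-/- cells were 9919 and 11116 UMIs in C5 and 13143.5 and 14618.5 in C7. They were 8239 and 9092 in C10, against 6648 and 7187 in C0. A lower CPM in these clusters is a lower share of all UMIs and does not show fewer molecules per cell. In C5 Siglecg was 1.70-fold lower than in C0 in WT and 1.57-fold lower in Batf3-/- cells, and Siglece 1.80-fold and 1.83-fold lower. Siglech was higher in C5, at 7.55 against 2.15 CPM in WT and 11.0 against 1.65 CPM in Batf3-/- cells, where in G1 cells alone its log2 ratio was −0.20. Cd33 was at 6.26 against 4.54 CPM and at 10.4 against 3.57 CPM. For C5 over C0, 3 of 5 members passed in WT and 5 of 5 in Batf3-/- cells, against 23.5% and 22.7% of all genes.

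Siglecg in C7 was at 240 and 209 CPM, 1.45-fold and 1.46-fold lower than in C0, and in C10 at 288 and 252 CPM, 1.20-fold and 1.21-fold lower. Siglech was 8.10-fold higher in C7 than in C0 in WT and 3.31-fold higher in Batf3-/- cells, with 75.7% and 53.3% of its C7 UMIs in 5 cells. In C7, 2 of 5 members passed in WT and 4 of 5 in Batf3-/- cells against 35.4% and 36.3% of genes, and in C10 it was 2 of 5 and 1 of 4 against 26.3% and 24.8%. Siglece was lower than in C0 in each of these, at 11.4 and 9.68 CPM in C7 and 9.76 and 12.5 CPM in C10. In G1 cells alone the log2 ratio of Siglece in C10 over C0 was 0.22 in Batf3-/- cells, and with a mean of per-cell CPM that of Cd33 was 0.28 in WT, where it had passed as lower. In cycling cDC1, C6 over C4, 1 of 4 members passed in WT and 1 of 2 in Batf3-/- cells, against 27.5% and 40.5% of genes. That gene was Cd22 in both, at 9.46 against 4.89 CPM in WT and at 39.7 against 12.7 CPM in Batf3-/- cells, the last from 6 UMIs. For C3 over C14, 3 of 4 members passed in WT (Siglech, Siglecg and Cd22) and 3 of 5 in Batf3-/- cells (Siglech, Siglece and Cd22), against 31.5% and 37.2% of genes. In Batf3-/- cells the log2 intervals of Siglece (−0.48 to 3.41, 3 UMIs in C14) and Cd22 (−0.14 to 2.10, 8 UMIs in C14) held 0.

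**Figure D4:**
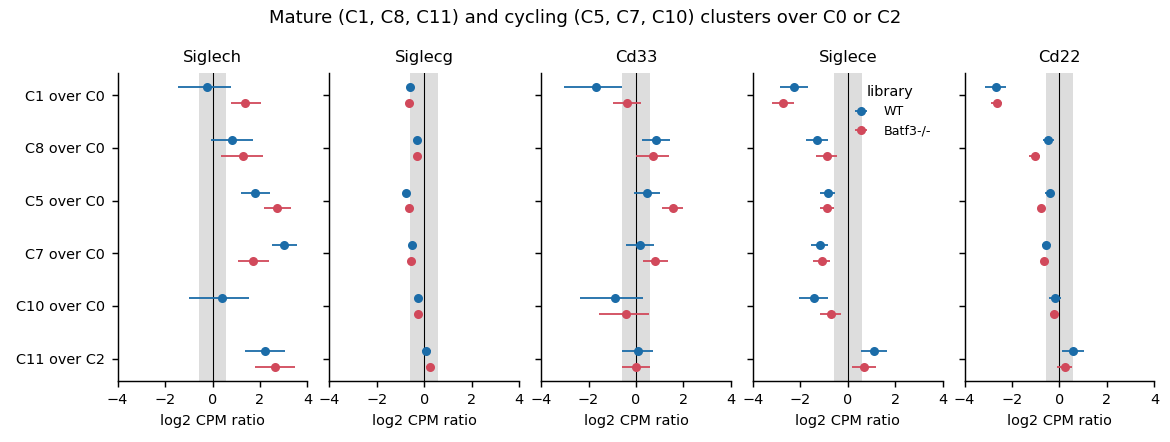
Log2 CPM ratio of each Siglec gene in mature (C1, C8, C11) and cycling (C5, C7, C10) clusters over C0 or C2, within the WT and the Batf3-/- library; bars are exact 95% counting intervals and the grey band marks ratios under 1.5-fold. Siglece is left of 0 in C1, C8, C5, C7 and C10 and right of 0 in C11, and Cd22 is furthest left in C1.

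The genotypes were then compared within the 17 clusters that had at least 30 cells in each library, by the same 1.5-fold rule with at least 50 UMIs over both libraries. The members were read in 0 to 17 clusters, all from the same pair of libraries. Cd22 could be read in 13 clusters and was higher in Batf3-/- cells in 12 of them, with intervals above 0 in 8 and a median log2 ratio of 0.48. The exception was C8, at 44.6 CPM in WT and 41.8 CPM in Batf3-/- cells. The share of all genes that were higher in as many clusters is not given here, so this count of clusters is a description. Siglecg was higher in 8 and lower in 9 of 17 clusters with a median of −0.08, Siglech higher in 3 and lower in 5 of 8, Cd33 higher in 4 and lower in 5 of 9, and Siglece higher in 2 and lower in 7 of 9 with a median of −0.23 and intervals below 0 in 2. Siglec1 and Siglecf had too few UMIs in every cluster.

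In immature cDC2a the rule called 0 of 5 members, where 4.35% of all genes were called. Cd22 in C0 was at 1.40-fold, log2 0.48 (0.38 to 0.58), and 96.6% of the tested genes had a ratio at or below it. Of the 6 B cell markers used, Ms4a1 was at 20.2 and 32.7 CPM and Cd79b at 29.2 and 35.0 CPM in C0, while the other 4 had at most 6 UMIs in either library and none was higher in Batf3-/- cells by count. Together they summed to 50.01 and 68.0 CPM, and their part in the Cd22 ratio was not tested. In cDC2b of C2, where 4.78% of genes were called, 2 of 5 members passed. Cd22 rose from 19.8 CPM in WT (164 UMIs) to 33.6 CPM in Batf3-/- cells (515 UMIs), log2 0.76 (0.51 to 1.03), with 98.8% of genes at or below it. Siglech was lower, at 3.26 and 1.70 CPM, from 27 and 26 UMIs. Split by label, Cd22 was at 22.5 and 38.3 CPM in C2 cells labelled DC and at 15.6 and 22.6 CPM in those labelled monocytes.

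In Sox4+ cDCs and pDCs most members with enough UMIs stayed under 1.5-fold. In C3, where 3.59% of genes were called, 1 of 5 members passed, and this was Cd22 at 8.91 CPM (55 UMIs) in WT and 13.98 CPM (212 UMIs) in Batf3-/- cells. With a mean of per-cell CPM this Cd22 ratio was 0.56 on the log2 scale, short of 1.5-fold. Siglech in C3 was lower in Batf3-/- cells by 0.36 on the log2 scale (0.23 to 0.48), Siglecg was lower by 0.12 (0.03 to 0.21) and Cd33 by 0.04, with an interval from −0.24 to 0.16. In C14, where 7.64% of genes were called, 0 of 3 members passed, and Siglech was 1.11-fold higher, log2 0.16 (0.08 to 0.24). Siglecg in C14 was 1.34-fold higher, at 113 and 152 CPM, log2 0.42 (0.10 to 0.74).

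Of the 13 clusters in which it could be read, Cd22 had its largest genotype ratio in the cycling cDC1. In C6, where 14.3% of genes were called, 7.26% of them higher and 7% lower in Batf3-/- cells, all 3 members with enough UMIs were higher. Cd22 was at 9.46 CPM (148 UMIs) in WT and 39.7 CPM (535 UMIs) in Batf3-/- cells, 4.20-fold, log2 2.07 (1.80 to 2.34), with 99.4% of genes at or below it. Siglecg was at 44.4 and 80.1 CPM, 1.81-fold, and Cd33 at 1.15 and 3.04 CPM from 18 and 41 UMIs. Siglech and Siglece had too few UMIs for the rule. Siglech was lower in Batf3-/- cells, with 29 and 15 UMIs at 1.85 and 1.11 CPM, log2 −0.73 (−1.74 to 0.21). Siglece had 15 and 11 UMIs at 0.959 and 0.817 CPM and an interval of the log2 ratio from −1.50 to 0.99.

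The cell identity markers of C6 moved in the same comparison. Of the cDC1 markers, Xcr1 was at 397 CPM in WT and 45.7 CPM in Batf3-/- cells, Clec9a at 203 and 82.1, Cadm1 at 151 and 12.3, and Irf8 at 1895 and 941 CPM. Of the cDC2 markers, Cd209a was at 14.9 and 139 CPM, Itgam at 2.69 and 24.6, and Sirpa at 10.7 and 24.2 CPM. The cDC2 list also held Cd7, whose level in C6 is not given here. The levels of Siglecg, Cd22 and Siglece in Batf3-/- C6 cells were all below those in Batf3-/- C0 cells. The B cell markers in C6 summed to 26.5 CPM in WT and 27.6 CPM in Batf3-/- cells. The part of the shifted cDC1 and cDC2 markers in the Siglec ratios was not tested.

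In C4, where 37.1% of genes were called, 2 of 2 members passed, Siglecg at 38.5 and 85.0 CPM and Cd22 at 4.89 and 12.7 CPM. With 31 Batf3-/- cells, the latter rested on 6 UMIs and its interval reached from −0.08 to 2.54 on the log2 scale. Siglech had 0 UMIs in those 31 cells, which allows up to 6.37 CPM (3 UMIs) against 1.32 CPM in WT. In C13, where 9.25% of genes were called, both members with enough UMIs passed, Siglecg at 62.0 and 102 CPM and Cd22 at 15.5 and 31.2 CPM. In the C13 cells labelled DC, Siglecg was at 135 and 146 CPM and Cd22 at 28.4 and 29.2 CPM. C15 had 1 of 1 member called, Siglecg at 41.9 and 68.8 CPM, where 15% of genes were, and in G1 cells this was no longer past 1.5-fold.

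In the clusters C8, C9, C10, C11, C12 and C16 no call was made, with 0 of the members tested past the rule, where 6.64%, 10.3%, 5.17%, 7.45%, 28.5% and 9.46% of genes were called. The remaining calls were in C1, C5 and C7. In C1, where 6.75% of genes were called, 2 of 4 members passed: Siglece was lower, at 5.43 CPM in WT and 3.14 CPM in Batf3-/- cells, and Siglech higher, at 1.81 and 4.30 CPM. The Siglece log2 ratio of Batf3-/- over WT in C1 was −0.79, and it was short of 1.5-fold with a mean of per-cell CPM (−0.46) and in G1 cells (−0.50). In C5, where 4.29% of genes were called, 1 of 5 members passed, Cd33 at 6.26 CPM (44 UMIs) and 10.4 CPM (111 UMIs). In C7, where 4.12% of genes were called, 1 of 5 members passed, Siglech at 17.4 and 5.45 CPM, and this was no longer past 1.5-fold without called doublets, which were 36 of 496 WT and 33 of 558 Batf3-/- C7 cells.

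**Figure D5:**
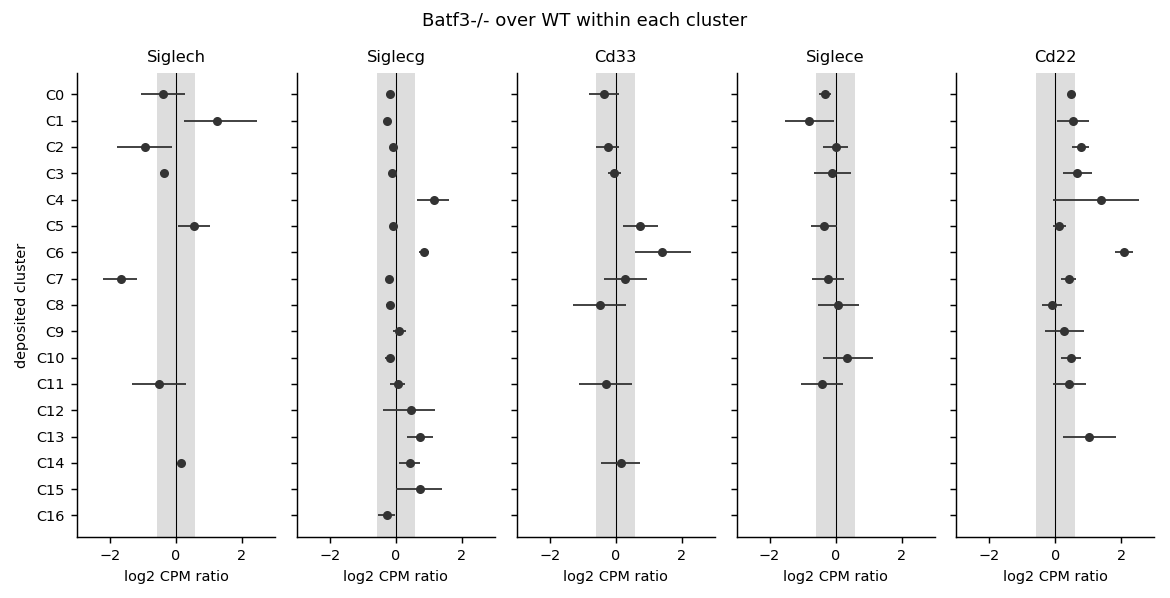
Log2 CPM ratio of Batf3-/- over WT for each Siglec gene in each cluster with at least 50 UMIs over both libraries; bars are exact 95% counting intervals and the grey band marks ratios under 1.5-fold. Cd22 is right of 0 in 12 of 13 clusters, most in C6, and Siglecg lies within the band except in C4, C6, C13 and C15.

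The genes whose levels over 17 clusters were most like each member were looked up among 9984 genes, as a description without a test over clusters that share libraries and depth. For Siglech these were Ptprf (Pearson r = 0.96 of log2 CPM), a receptor tyrosine phosphatase, Lefty1 (0.95) and Pdzd4 (0.94), each highest in C14 and next in C3. For Cd33 they were Snx18 (0.90), a sorting nexin, Hpse (0.90), the heparanase, and Klra17 (0.88), a Ly49-type receptor, again highest in C14 and then in C3. For Siglece they were Sirpb1a (0.91) and Sirpb1b (0.90), of the signal regulatory protein family, and Pip4k2a (0.89). For Siglecg they were Cep63, Arhgap6 and Stra6l (0.95, 0.95 and 0.93), and for Cd22 Ffar1, a fatty acid receptor, Sash1 and Otulin (0.93, 0.90 and 0.90). The lists depended on the measure. With Spearman's rho, 0 of the 3 genes stayed among the top 3 for Siglech, 1 for Siglecg and 2 each for Siglece, Cd33 and Cd22, and over all 20 clusters it was 2 for Siglech and Cd22 and 1 for the others. Over all 20 clusters r was 0.77 for Lefty1 with Siglech, and 0.73 for Snx18 and 0.74 for Klra17 with Cd33. Among the members themselves r over the 17 clusters was 0.77 for Siglech with Cd33, 0.68 for Siglece with Cd22 and 0.63 for Siglecg with Siglece.

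A fixed list of 29 genes that work with Siglecs, as adaptors, phosphatases, makers or carriers of sialic acid, was also read. Of these, Tyrobp, Cmah, St8sia4, Gne and Slc35a1 had their highest level in C14. The share of all genes highest in C14 is not given here, so this is not read as a result about the list. St8sia4 was at 546 CPM in C14 and 443 in C9, and Gne at 35.0 in C14 and 15.2 in C3. Slc35a1 was at 24.2 CPM in C14, close to 23.7 in C3 and 19.9 in C0. Tyrobp, the adaptor of Siglec-H, was highest in C14 at 3834 CPM, followed by C15 at 2361, and was at 1440 CPM in C3, 1693 in C0 and 740 in C4 over both libraries. Cmah, whose enzyme turns the sialic acid Neu5Ac into Neu5Gc, was also highest in C14, at 149 CPM, with 59.6 in C13, 4.69 in C3 and 0.481 in C0. Ptpn6, the phosphatase that inhibitory Siglecs recruit, was at 490 CPM in C3, 480 in C0 and 446 in C14, and lowest in C4 at 116 CPM. Cd24a, a sialylated ligand of Siglec-G, was at 221 CPM in C6 and 177 in C4, where Siglecg was low, and at 10.8 CPM in C0, but also at 118 CPM in C3, where Siglecg was at 224 CPM over both libraries.

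Between genotypes these genes were read by the same rule. In C6, 6 of 27 were higher and 2 lower in Batf3-/- C6 cells, against 7.26% and 7% of all genes, and their median log2 ratio was 0.09 against 0.0059 over all genes tested. The highest was Fcer1g, an adaptor with an activating motif, at 131 CPM in WT and 488 CPM in Batf3-/- cells, log2 1.89 (1.82 to 1.96). Ptpn6 was at 122 and 266 CPM and Tyrobp at 577 and 892 CPM. The lowest was St6gal1, the transferase that makes the alpha-2,6-linked sialic acid that CD22 prefers, at 11.8 CPM (185 UMIs) and 2.97 CPM (40 UMIs), log2 −1.99 (−2.52 to −1.49). In C4, where 37.1% of all genes were called, 5 of 27 were higher and 6 lower, and in C12, where 28.5% were, 4 of 18 were higher and 5 lower, each with 31 Batf3-/- cells. In C0, 0 of 27 passed, in C3 1 of 27 (St3gal3, lower), in C2 1 of 27 (Cd24a, at 12.9 and 23.2 CPM) and in C14 2 of 22, both higher. Of all genes, 4.35% were called in C0, 3.59% in C3, 4.78% in C2 and 7.64% in C14, so these counts are not read as a result about the list.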

How the data were processed

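The 10x libraries of sorted splenic cells were processed by the authors with Cell Ranger on GRCm38 (mm10), aggregated to even depth and filtered in Seurat (the submitters' processing notes name Seurat 3.0.5 and bcl2fastq 2.2.0). The authors deposited raw UMI counts per gene and cell, and, per cell, UMI counts, fractions of mitochondrial and ribosomal UMIs, cluster, SingleR label and phase, all used as given. The counting's strand setting is not given in the sources used here. Whether Cd22 shares reads with the antisense Gm29439 was not tested. The antibody tag tables, whose rows carry no antibody name, and the normalized tables were not used here.

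Counts were summed per library and cluster with Python 3.11.15, numpy 2.4.6, pandas 2.3.3 and scipy 1.17.1 and divided by all UMIs, per 1000000 (CPM). Neither cells nor genes are replicates, so no p-value was computed. Ratios of CPM have exact intervals from the binomial split of the UMIs. Called means at least 1.5-fold with at least 50 UMIs over the groups compared, in clusters of at least 30 cells per library. A count of 0 was read as under 3 counts. UMIs are molecules, and intervals and floors cover counting error only. Cells were thinned without replacement to 1000, 2000 or 5000 UMIs, leaving out 28 WT and 42 Batf3-/- cells at 1000. Doublets were called with Scrublet in scanpy 1.11.5 at an expected rate of 0.1 (541 WT and 244 Batf3-/- cells) and kept except in an alternative. Likeness was read over clusters with at least 100 cells among genes with at least 10 CPM in 1 cluster and 200 UMIs in all. Counts were also simulated for C0 of both libraries, over 10567 genes. There 198 of 200 changed genes were called in their direction, and 0.916% of unchanged genes were called. In the deposited counts of C0 the rule called 4.35% of all genes. No other cluster was simulated, and the share of wrong calls between the genotypes was not tested.

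The members, gene lists, cluster pairs and the named genes (every member, the 3 genes most like each, Tyrobp, Ptpn6, Cmah, Cd24a, the pathway genes highest and lowest in C6, and genes of the lists) were chosen with earlier results of these data known. Alternatives were a mean of per-cell CPM, a total without mitochondrial and ribosomal protein genes, no called doublets, G1 cells only, cells labelled DC only, other thinning depths and a minimum of 20 UMIs. Leaving out the 5 cells with most UMIs of a member was added after seeing the data. A marker of the B cell list is not reported here and was left out of its sums.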

Additional observations from a re-analysis of the deposited data

Results flagged for a closer look

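The log2 ratio of Siglech in Batf3-/- over WT cells went in opposite directions in different clusters, with 1.25 (0.23 to 2.45) in C1, −0.94 (−1.78 to −0.11) in C2 and −1.68 (−2.21 to −1.17) in C7. The difference between the clusters was not tested, since each genotype had 1 library. The values rest on few cells: 9 WT and 59 Batf3-/- UMIs in C1, of which the 5 cells with the most held 88.9% and 55.9%, 27 and 26 UMIs in C2, and 115 and 45 UMIs in C7, where 5 cells held 75.7% and 53.3%. Without called doublets the ratio was 0.86 in C1, where fewer than 50 UMIs then remained, and −0.57 in C7.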

How the results depend on the processing

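No paired analysis was possible because there was 1 library per genotype and no test was made. Of 314 alternative values of genotype ratios, 307 stayed inside the counting interval of the reported ratio, 7 moved outside it and 0 reversed. Of the 15 calls, 13 held with a mean of per-cell CPM (lost: Cd22 in C3, Siglece in C1), 15 without mitochondrial and ribosomal protein genes in the total and 15 at a minimum of 20 UMIs. Without doublets 12 of the 13 that could be computed held (lost: Siglech in C7), in cells labelled DC 11 of 12 (lost: Siglecg in C13), in G1 cells 4 of 6 (lost: Siglece in C1, Siglecg in C15), and without the 5 cells with most UMIs 7 of 7, while the other 8, Siglech in C1, C2 and C7 among them, had too few UMIs left to be read. In G1 cells Cd22 was called higher in 2 clusters in place of 5, and the other 3 calls, in C4, C6 and C13, could not be read under the minimum of 30 G1 cells or of 50 UMIs.

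A total without mitochondrial and ribosomal protein genes raised every level by construction: Siglech to 187 WT and 147 Batf3-/- CPM in C3 and 2631 and 2980 in C14, Siglecg to 491 and 438, Siglece to 36.5 and 29.4 and Cd22 to 87.5 and 124 in C0, and Cd33 to 70.0 and 68.1 in C3. A mean of per-cell CPM gave Siglech 2166 and 2311 in C14, Siglecg 366 and 325 in C0, Cd33 43.1 in Batf3-/- C3, and log2 ratios of −4.10 for Siglech in C3 over C14 in WT and −2.88 for Cd22 in C1 over C0 in Batf3-/- cells. Without doublets Siglech in C14 was 2249 and 2388 CPM, Siglech in C3 over C14 was −4.10 and −4.54, Cd22 in C1 over C0 was −2.95 in Batf3-/- cells, and the genotype ratio of Siglecg in C6 was 1.14. Without the 5 cells with most UMIs Siglech was 122 CPM in WT C3. The share of cells with Siglech was 18.2% and 16.3% in C3 and 94.1% and 98.0% in C14 at 2000 UMIs, and 43.2%, 40.1%, 99.4% and 100% as deposited.

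Of ratios between clusters, 5 reversed. With a mean of per-cell CPM, Siglech in C12 over C4 in WT was −0.29 and Cd33 in C10 over C0 in WT 0.28. Without the top 5 cells Siglech in C8 over C0 in WT was −0.18. In G1 cells Siglech in C5 over C0 was −0.20 and Siglece in C10 over C0 0.22, both in Batf3-/- cells. At 5000 UMIs Bcl11a with over without Siglecg in WT C3 was 0.020, so that difference was not seen. Beyond the construction named, the cause was not tested. Siglec1 and Siglecf had too few UMIs to be read, and C4 and C12 ratios rest on 31 Batf3-/- cells.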
